A study of Mus musculus with 8 samples.

Results

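The 10 effector genes of activity-induced plasticity described here, Arc, Bdnf, Nptx2, Ptgs2, Homer1, Btg2, Dusp1, Gadd45b, Ier2 and Klf6, are members of a table of 54446 gene identifiers from the medial prefrontal cortex of mice. They were chosen by name, with earlier results of these data known, as effectors that act downstream of, or beside, the fast activity-regulated transcription factors. All 10 were present and passed the filter on low counts, among 17636 genes tested. The study is about Ino80e, which encodes a component of the chromatin remodeller INO80, and compares 4 libraries labelled Ino80e overexpression with 4 labelled wild type. The design text describes an adeno-associated virus placed in the medial prefrontal cortex by stereotaxic injection. The promoter of the virus, the cells it reaches, a control virus in the wild-type mice, the strain, sex and age of the mice, the time after injection and the number of mice behind each library were not stated in the labels. P-values therefore measure the spread between libraries, which may be partly technical.

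Library totals ran from 44762378 to 60490153 read counts, and the 10 genes held between 265 and 11209 counts in any library. Expression is given in CPM, which relates the counts of a gene to the TMM-scaled size of its library, per library and as mean ± SD (n = 4), and fold changes are log2 values of overexpression minus wild type with a standard error (SE). A change was called at an edgeR adjusted p under 0.05 over all genes. Ino80e stood at 74.1, 23.4, 23.3 and 45.04 CPM in replicates 1 to 4 of the libraries labelled overexpression, against 19.5 to 25.5 CPM in wild type, so replicates 2 and 3 go against their label and directions below are those of the libraries as labelled. Markers of excitatory neurons were abundant in every library, with a summed level of 3674 to 4481 CPM over 8 markers, and inhibitory neuron markers summed to 697 to 779 CPM over 6.

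When a cortical neuron fires, calcium entry activates kinases and factors such as CREB and SRF, which switch on a first set of transcription factor genes, among them Fos, Egr1, Nr4a1 and Npas4. The effector genes carry that signal to the synapse and to the cell body: some are induced as fast as the factors themselves and others depend in part on the factors. In cortex they set receptor numbers at synapses, release growth factors and prostaglandins, and turn the kinase signal off again.

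The 10 effectors did not move as a block. Btg2 fell in the libraries labelled overexpression and was the 1 member called of 10, where 0.0227% of all genes tested were called lower. Ptgs2, Klf6 and Bdnf were, like Btg2, below every wild-type library in all 4 libraries labelled overexpression but missed the threshold. That makes 4 of 10 members in this position, against 3.02% of all genes tested, and no member was above wild type in all 4, where 2.82% of all genes were. Arc and Dusp1 instead diverged among the libraries labelled overexpression, with low and high replicates on either side of wild type. Of the 10 fold changes 9 were below 0, against 49.5% of all genes, and 6 members were lower at an unadjusted p under 0.05, against 5.43% of all genes. The median log2 fold change of the 10 was -0.22, and that of all genes tested was 0.0016. Because the members were chosen with earlier results of these data known, these shares describe the 10 genes and do not test them.

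**Figure D1:**
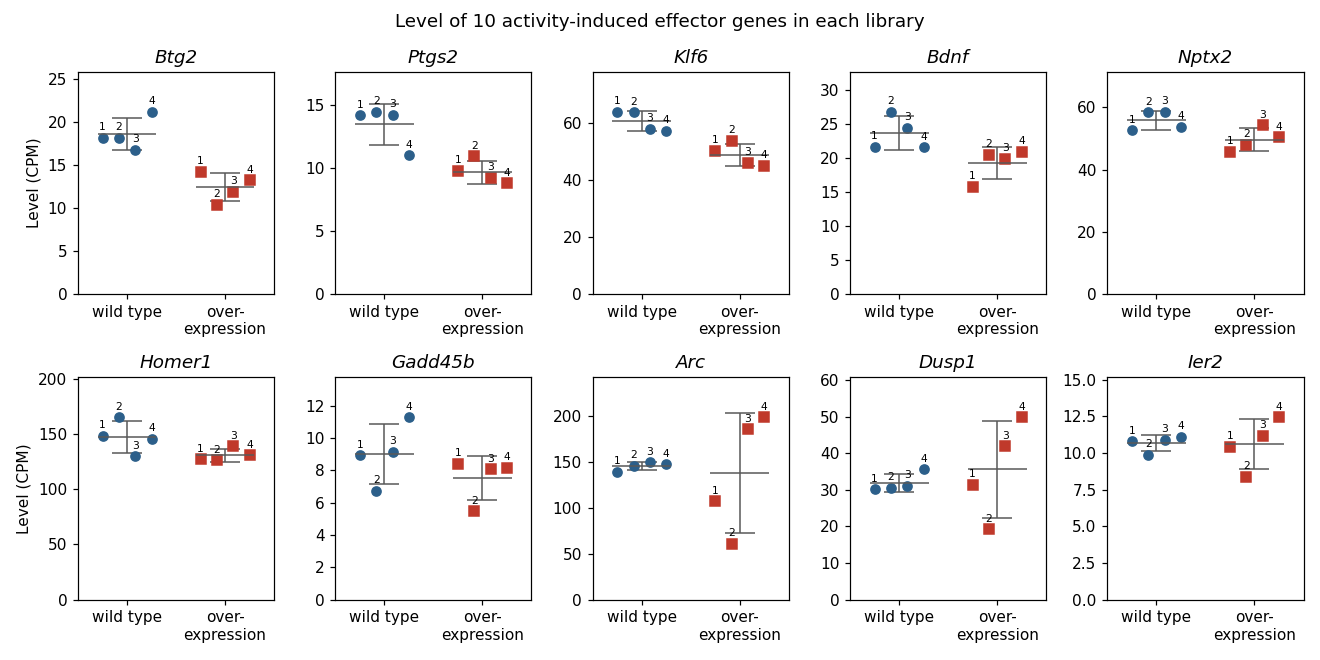
Level of each effector gene in CPM (vertical axis, from 0) in the 4 wild-type libraries (blue circles) and the 4 libraries labelled overexpression (red squares), numbered by replicate; bars are mean ± SD. The 2 groups do not overlap for Btg2, Ptgs2, Klf6 and Bdnf, while Arc runs from 60.5 to 199 CPM within the libraries labelled overexpression against 139 to 150 CPM in wild type.

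Per length, Arc was the most abundant member in wild type, at 192 ± 8.75 TPM (SD, n = 4), a read density scaled to the same total in each library. Nptx2 followed at 88.5 ± 3.56 TPM, and neither overlapped its neighbour in the order. Klf6, Homer1 and Dusp1 came next at 55.8, 49.5 and 38.9 TPM, with overlap of Klf6 with Homer1 and of Homer1 with Dusp1 in wild type. Ier2, at 28.3 TPM, lay below all wild-type Dusp1 values, and Ier2, Btg2, Gadd45b and Bdnf formed a run of overlapping ranges down to 15.3 TPM. Ptgs2 was lowest at 11.8 TPM, below all wild-type Bdnf values.

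The genes lower in every library labelled overexpression were described first. Btg2 encodes an antiproliferative protein that brings the CCR4-NOT deadenylase to messenger RNAs. Btg2 (ENSMUSG00000020423, chromosome 1, 134075170 to 134079120, minus strand, GRCm38) stood at 14.2, 10.4, 11.9 and 13.2 CPM in the libraries labelled overexpression and at 18.2, 18.2, 16.7 and 21.2 CPM in wild type. All 4 overexpression values lay under the lowest wild-type value, replicate 2 lowest of all. The wild-type mean of 18.6 ± 1.86 CPM fell to 12.4 ± 1.67 CPM, a log2 fold change of -0.58 (SE 0.103, edgeR adjusted p = 0.0369), the fifth lowest p of all genes. The call was lost without any 1 wild-type library or without overexpression replicate 2, 3 or 4, with log2 values of -0.65 to -0.50 over all fits that left 1 library out, and also in limma-voom, without robust estimation and with the replicate block.

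Ptgs2 encodes cyclooxygenase-2, the inducible enzyme that starts prostaglandin synthesis from arachidonic acid. Ptgs2 (ENSMUSG00000032487, chromosome 1, 150100031 to 150108227, plus strand) held 9.79, 10.9, 9.24 and 8.82 CPM in the libraries labelled overexpression and 14.2, 14.5, 14.2 and 11.1 CPM in wild type. The groups did not overlap, but wild-type replicate 4 lay close to the highest overexpression value. The log2 fold change was -0.48 (SE 0.110) and missed the threshold (edgeR adjusted p = 0.184), also without that wild-type library (log2 -0.56, edgeR adjusted p = 0.0911).

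Klf6 encodes a Krüppel-like zinc finger transcription factor. Klf6 (ENSMUSG00000000078, chromosome 13, 5861482 to 5870394, plus strand) held 50.4, 53.8, 46.2 and 45.2 CPM in the libraries labelled overexpression and 64.0, 63.8, 58.1 and 57.3 CPM in wild type. The groups did not overlap, and replicates 3 and 4 were the lowest. Klf6 and Ptgs2 ranked the 4 libraries labelled overexpression in the same order, from replicate 4 (lowest) through 3 and 1 to 2. Its log2 fold change was -0.32 (SE 0.0628, edgeR adjusted p = 0.106), the seventh lowest p of all genes. Ptgs2 and Klf6 both passed in DESeq2 (adjusted p = 0.0252 and adjusted p = 0.00882) and in edgeR with no low-count filter (adjusted p = 0.0140 and adjusted p = 0.00138).

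Bdnf encodes the neurotrophin that signals through the TrkB receptor. Bdnf (ENSMUSG00000048482, chromosome 2, 109674700 to 109727007, plus strand) held 15.8, 20.4, 19.9 and 20.9 CPM in the libraries labelled overexpression and 21.7, 26.7, 24.4 and 21.5 CPM in wild type. The groups were separated by a narrow gap, with replicate 1 well below the others. The log2 fold change was -0.29 (SE 0.0946) and missed the threshold (edgeR adjusted p = 0.315). An antisense gene, Gm45346, overlaps 14.4% of the exon length of Bdnf, and the counting is not stated to use strand, so part of these counts is uncertain.

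Nptx2 and Homer1, which act at the excitatory synapse, were lower by a smaller step. Nptx2 encodes a secreted neuronal pentraxin that clusters AMPA receptors. It held 45.7, 47.9, 54.2 and 50.3 CPM in the libraries labelled overexpression and 52.5, 58.3, 58.4 and 53.6 CPM in wild type (log2 -0.17, SE 0.0619, edgeR adjusted p = 0.347). Overexpression replicate 3 lay inside the wild-type range and the other 3 below it, a position held by at least 3 libraries in 10.4% of all genes. Homer1 encodes a postsynaptic scaffold that ties group I metabotropic glutamate receptors to Shank and to inositol trisphosphate receptors, and its short activity-induced form breaks those ties. Homer1 held 127, 126, 139 and 131 CPM in the libraries labelled overexpression and 148, 165, 130 and 146 CPM in wild type (log2 -0.17, SE 0.0612, edgeR adjusted p = 0.343). Replicates 1 and 2 were below all wild-type libraries and 3 and 4 were not, a position that Homer1 and Arc shared with 2.03% of all genes. Counts per gene add the short and the long forms of Homer1, so the induced form was not measured by itself.

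Fold changes rose with the GC content of the transcript: the 25% of genes with the highest GC had a median log2 fold change of 0.089, and the 25% with the lowest one of -0.092 (4407 genes each). The longest Homer1 transcript has a GC content of 36.9% against 58.3% for Nptx2. With a correction for transcript GC content, Homer1 stood at log2 -0.04 (SE 0.058, edgeR adjusted p = 0.983) and Nptx2 at -0.28 (SE 0.061, edgeR adjusted p = 0.275). After that correction all 4 libraries labelled overexpression were below all wild-type libraries for Nptx2, Btg2 and Klf6, and no longer for Ptgs2 and Bdnf, in a position held by 1.98% of all genes. Btg2 kept its call (log2 -0.58, SE 0.102, edgeR adjusted p = 0.0187).

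**Figure D2:**
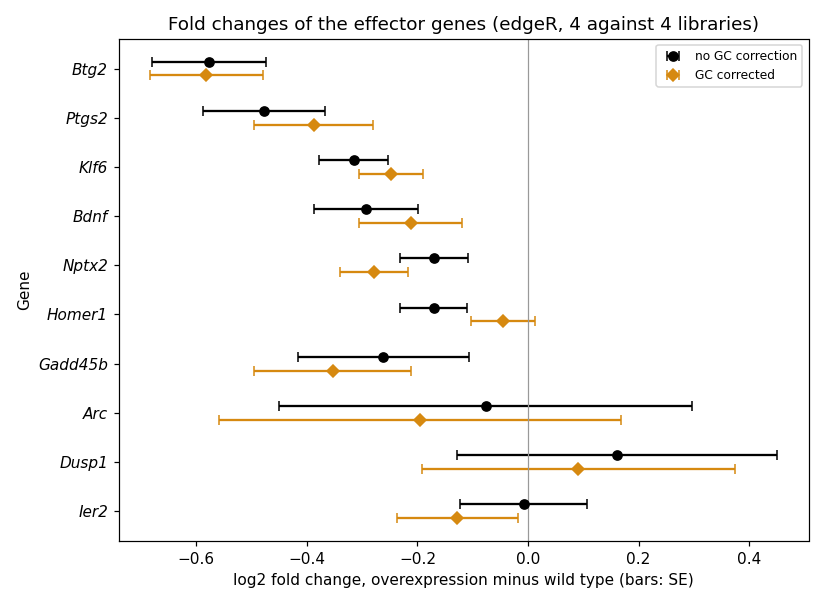
Log2 fold change of each effector gene (horizontal axis, overexpression minus wild type; bars are SE) from edgeR on 4 against 4 libraries, without (black circles) and with (orange diamonds) a correction for transcript GC content. Btg2 stays at -0.58, Homer1 moves from -0.17 to -0.04, and the bars of Arc and Dusp1 span 0.

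Arc and Dusp1 varied far more among the libraries labelled overexpression than in wild type. Arc encodes a cytoskeleton-associated protein that drives internalisation of AMPA receptors, and its messenger RNA is carried to active dendrites. Arc (ENSMUSG00000022602, chromosome 15, 74669083 to 74672570, minus strand) stood at 107, 60.5, 185 and 199 CPM in the libraries labelled overexpression and at 139, 146, 150 and 147 CPM in wild type. Replicates 1 and 2 were below all wild-type libraries, replicates 3 and 4 above all of them, and no value of the group labelled overexpression lay inside the wild-type range. The coefficient of variation was 47.6% in the group labelled overexpression and 3.21% in wild type. The group means of 138 ± 65.5 and 145 ± 4.67 CPM therefore gave a log2 fold change of -0.08 (SE 0.374, edgeR adjusted p = 0.959).

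Dusp1 encodes a nuclear phosphatase that switches off MAP kinases. Dusp1 (ENSMUSG00000024190, chromosome 17, 26505590 to 26562128, minus strand) stood at 31.3, 19.3, 42.0 and 49.9 CPM in the libraries labelled overexpression and at 30.1, 30.6, 31.2 and 35.6 CPM in wild type. Replicate 2 was below all wild-type libraries, replicates 3 and 4 above, and replicate 1 inside the range. Its coefficient of variation was 37.3% against 7.97%, and its log2 fold change was 0.16 (SE 0.289, edgeR adjusted p = 0.875). The fold changes of Arc and Dusp1 changed sign with 1 library: Arc stood at 0.17 without overexpression replicate 2 and Dusp1 at -0.043 without overexpression replicate 4.

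Ier2 and Gadd45b were below all wild-type libraries in overexpression replicate 2 alone. Ier2, a nuclear protein gene of the immediate early response, held 10.4, 8.39, 11.2 and 12.4 CPM in the libraries labelled overexpression and 10.8, 9.87, 10.9 and 11.1 CPM in wild type (log2 -0.01, SE 0.115, edgeR adjusted p = 0.987). Arc, Dusp1 and Ier2 ranked the libraries labelled overexpression in the same order, from replicate 2 (lowest) through 1 and 3 to 4, which is the reverse of the order of Klf6 and Ptgs2. Gadd45b, a stress-induced gene linked in mouse neurons to activity-dependent DNA demethylation, held 8.42, 5.47, 8.07 and 8.15 CPM against 8.93, 6.73, 9.16 and 11.3 CPM (log2 -0.26, SE 0.154, edgeR adjusted p = 0.554). The other 3 libraries labelled overexpression lay inside the wild-type range for Gadd45b, and replicates 3 and 4 were just above it for Ier2.

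**Figure D3:**
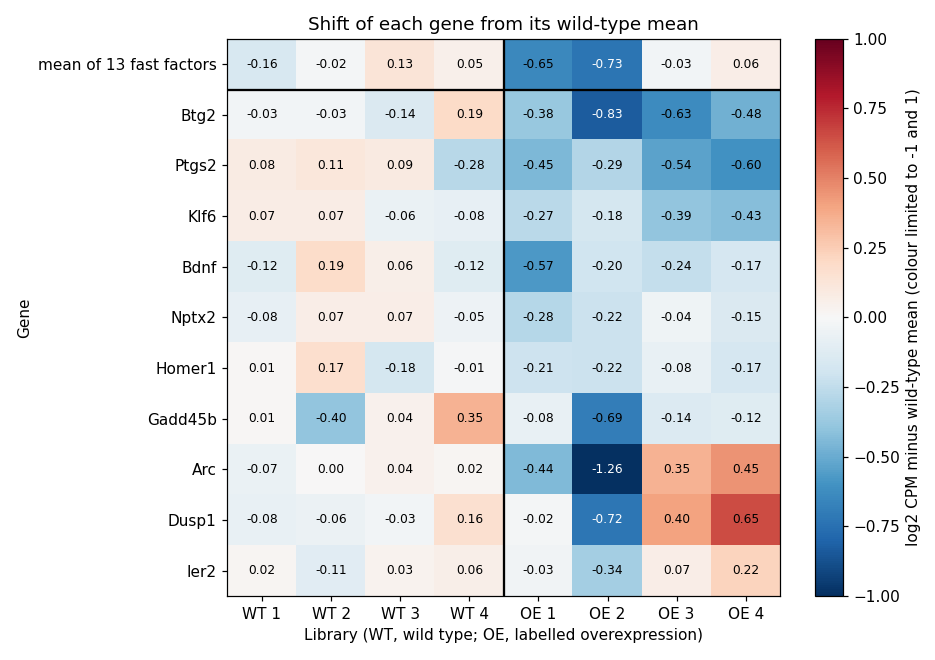
Shift of log2 CPM from the wild-type mean for the mean of 13 fast activity factors (top row) and each effector gene (rows) in each library (columns; WT, wild type; OE, labelled overexpression); blue is lower and red higher. Arc runs from -1.26 in OE 2 to 0.45 in OE 4, while Btg2 is between -0.83 and -0.38 in all 4 OE libraries.

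The effectors were then set beside 13 fast activity factors, Fos, Fosb, Fosl2, Jun, Junb, Egr1, Egr2, Egr3, Egr4, Nr4a1, Nr4a2, Nr4a3 and Npas4. The mean shift of these factors from their wild-type level was -0.65, -0.73, -0.026 and 0.064 in overexpression replicates 1 to 4, against -0.16 to 0.13 in wild type. Replicates 1 and 2 lay below all wild-type libraries and replicates 3 and 4 inside their range, and the group difference was not past the test (mean difference -0.33, exact two-sided permutation p = 0.257 over 70 arrangements). Arc was low in replicates 1 and 2, as the mean of the factors was, and exceeded wild type in replicates 3 and 4, where that mean did not. Of the single factors, Nr4a1 (52.2, 40.8, 116 and 104 CPM against 63.2 to 73.0 CPM) and Junb (53.9, 47.6, 82.3 and 82.7 CPM against 59.8 to 70.5 CPM) had the pattern of Arc, with replicates 1 and 2 below and replicates 3 and 4 above all wild-type libraries. The factors themselves were split: Fosb fell and was below wild type in all 4 libraries labelled overexpression (8.92, 10.7, 11.6 and 13.2 CPM against 14.8 to 17.6 CPM; log2 -0.59, SE 0.109, edgeR adjusted p = 0.0423), as Btg2 was. Fos, Egr1 and Egr2 were below wild type in replicates 1 and 2 and not in 3 and 4, with Fos at 10.9, 8.03, 23.99 and 26.8 CPM against 21.7 to 32.5 CPM. Npas4 was below wild type in replicates 1 to 3 (21.9, 18.9, 19.5 and 37.8 CPM against 34.7 to 44.8 CPM; log2 -0.72, SE 0.249, edgeR adjusted p = 0.409). Egr3 was below it in replicates 1, 2 and 4 (log2 -0.21, SE 0.069, edgeR adjusted p = 0.317). The mean in replicate 3 thus joins shifts as far apart as -1.04 for Npas4 and 0.80 for Nr4a1. Of the 13 factors, 9 had a fold change below 0 and 1 was called. At an unadjusted p under 0.05, 3 were lower and 0 higher, where 5.43% of all genes were lower. Fold changes ran from -0.84 for Egr2 to 0.23 for Nr4a1.

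To ask whether an effector moved apart from the factors, the mean log2 level of the factors was subtracted from that of each effector in each library. None of the 10 differences passed an exact two-sided permutation test over 70 arrangements, a design whose p cannot go under 0.0286. Dusp1 was higher relative to the factors by 0.41 on the log2 scale and Ier2 by 0.31 (exact permutation p = 0.0857 each, unadjusted over 10 genes), with 3 and 2 overexpression libraries above all wild-type libraries. The difference of Btg2 from the factors was -0.25 (exact permutation p = 0.343). Relative to the wild-type mean of that difference, Btg2 stood at 0.27 and -0.10 in the first pair of replicates and at -0.61 and -0.54 in the second. Ptgs2 showed the same split, at 0.20 and 0.43 against -0.51 and -0.67. Klf6 did so at 0.38 and 0.55 against -0.37 and -0.49. The subtraction itself raises any gene in replicates 1 and 2, where the mean of the factors was low. Bdnf, Nptx2, Homer1 and Gadd45b were likewise above 0 in replicates 1 and 2 and below 0 in replicates 3 and 4. The levels of Ptgs2 and Klf6 were lower in replicates 3 and 4 than in replicates 1 and 2. The mean of the factors was low in replicates 1 and 2 and inside the wild-type range in replicates 3 and 4. In replicates 3 and 4, however, Fosb was below all wild-type libraries, and Nr4a1 and Junb were above them. Npas4 was also below them in replicate 3, and Egr3 in replicate 4. Btg2 was lower in replicates 3 and 4 than in replicate 1 but lowest in replicate 2, the library with the lowest factors. Arc stood at 0.11 relative to the factors (exact permutation p = 0.714), with replicate 2 low at -0.54. Without overexpression replicate 2, the level relative to the factors was higher by 0.55 for Dusp1 and by 0.32 for Arc. Both had an exact permutation p of 0.0286, the smallest that 35 arrangements of 3 against 4 libraries allow, unadjusted over 10 genes. Without any other single library, the exact permutation p was 0.657 or higher for Arc and 0.0857 or higher for Dusp1.

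**Figure D4:**
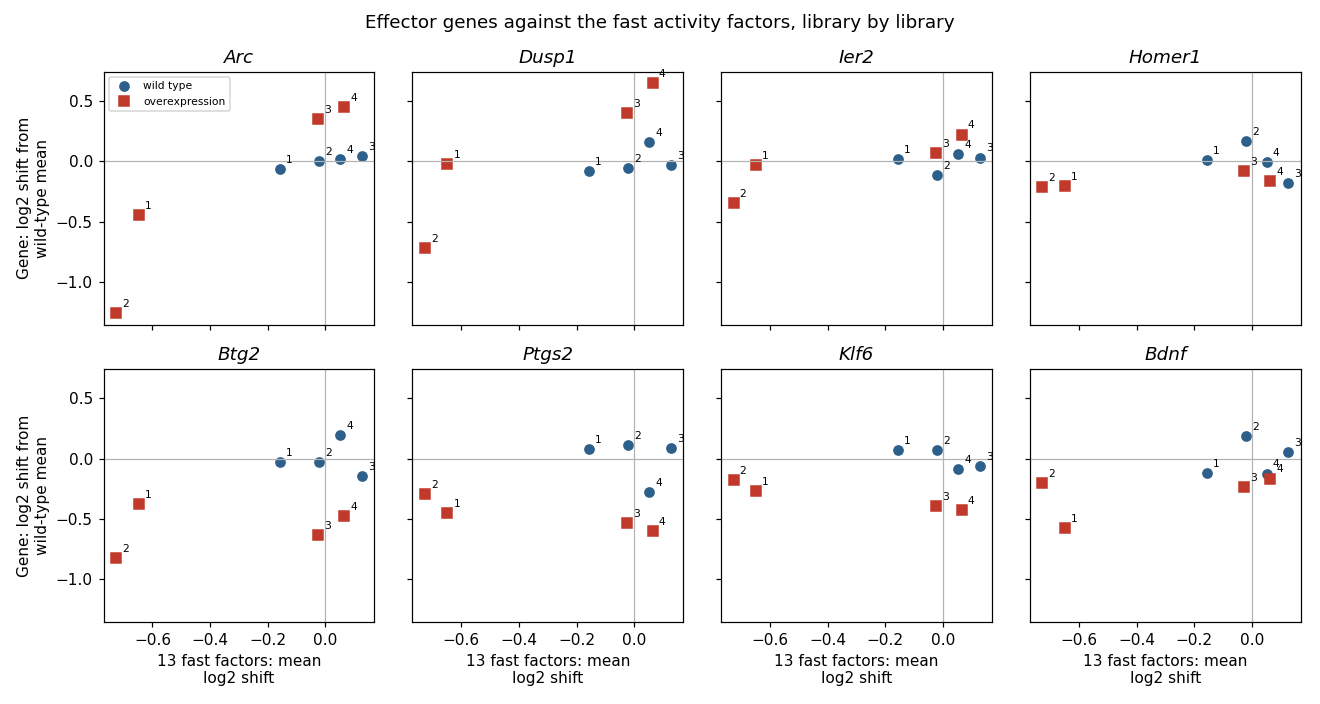
Shift of an effector gene from its wild-type mean (vertical axis, log2) against the mean shift of the 13 fast activity factors (horizontal axis, log2), 1 panel per gene and 1 point per library, numbered by replicate (blue circles, wild type; red squares, labelled overexpression). In the upper row, Arc, Dusp1 and Ier2 are lowest in replicate 2 and highest in replicate 4 of the group labelled overexpression; in the lower row, Btg2, Ptgs2, Klf6 and Bdnf are below 0 in all 4 of these libraries.

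Promoter sequences were read for 7 of the 10 members, in 14 windows of 250 bases before a start annotated by RefSeq (GRCm38.p6). Those of Arc, Nptx2 and Ier2 were not used here. The cyclic AMP response element, the site of CREB, was searched as TGACGTCA and as its core TGACG on both strands, so that each full site also counts as a core. The full site was in the windows of Btg2 and Dusp1, against 1.55% of 32851 windows of all genes. These 2 promoters are shown because they share that site while Btg2 was low and Dusp1 high in overexpression replicates 3 and 4. The core alone was in 1 of the 7 Bdnf windows and in 1 of the 2 Homer1 windows, against 17.8% of all windows. Both are shown as a pair with core sites close to the start. Capitals mark the motifs found, and all sequences run 5′ to 3′ on the strand of the gene.
Btg2: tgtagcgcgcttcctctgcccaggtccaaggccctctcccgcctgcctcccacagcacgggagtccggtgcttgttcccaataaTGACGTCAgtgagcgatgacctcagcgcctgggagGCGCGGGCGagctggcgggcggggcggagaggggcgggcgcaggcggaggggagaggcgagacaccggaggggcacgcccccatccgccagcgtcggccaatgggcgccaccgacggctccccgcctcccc
Dusp1: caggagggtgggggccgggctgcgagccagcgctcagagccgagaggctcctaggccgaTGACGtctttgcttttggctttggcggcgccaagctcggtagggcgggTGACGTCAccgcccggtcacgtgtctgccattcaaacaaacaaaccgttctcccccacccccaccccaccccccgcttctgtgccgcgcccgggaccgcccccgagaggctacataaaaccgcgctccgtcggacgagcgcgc
Bdnf: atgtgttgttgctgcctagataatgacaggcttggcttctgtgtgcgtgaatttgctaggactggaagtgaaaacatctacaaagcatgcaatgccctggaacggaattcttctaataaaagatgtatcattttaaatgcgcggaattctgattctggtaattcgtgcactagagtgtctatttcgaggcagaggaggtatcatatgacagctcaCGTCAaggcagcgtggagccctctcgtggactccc
Homer1: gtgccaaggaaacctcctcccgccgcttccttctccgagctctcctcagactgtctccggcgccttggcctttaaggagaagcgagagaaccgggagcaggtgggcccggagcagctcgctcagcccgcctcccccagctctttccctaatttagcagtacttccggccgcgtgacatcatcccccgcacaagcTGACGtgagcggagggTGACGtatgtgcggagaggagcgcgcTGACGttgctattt
The Btg2 window (chr1:134079156-134079405, minus strand) holds the full site 166 bases before the start, and 131 bases before it a match to GCGNGGGCG, the motif of Egr factors, which 4.70% of all windows hold. The Egr motif was in 2 of the 14 member windows, the other being that of Gadd45b, 30 bases before the start. The Dusp1 window (chr17:26508473-26508722, minus strand) holds the full site at 143 bases and a further core at 191 bases. The Bdnf window (chr2:109692186-109692435, plus strand) holds 1 core 35 bases before the start, and the Homer1 window (chr13:93303507-93303756, plus strand) holds 3, at 56, 40 and 14 bases. The windows of Ptgs2 and Klf6 held none of the motifs searched, which included TGANTCA for AP-1 (6.75% of all windows, 1 Bdnf window) and the CArG box of SRF (1.47% of all windows, no member). A match describes letters in these windows and not binding, and the absence of one says nothing about a factor.

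Relatives and partners of the effectors showed no called change. Nptx1, the pentraxin that assembles with Nptx2, was higher in every library labelled overexpression, at 539, 530, 545 and 551 CPM against 484, 491, 492 and 485 CPM (log2 0.15, SE 0.043, edgeR adjusted p = 0.315), opposite in direction to Nptx2. Homer2, a second Homer scaffold gene, stood at log2 -0.15 (SE 0.0634, edgeR adjusted p = 0.430). Among 17 family relatives 10 were below 0 with a median of -0.023. Of these 17, 2 (Nptx1 and Klf13) were above wild type in all 4 libraries labelled overexpression and 0 below, against 2.82% and 3.02% of all genes. The second group held 26 tested receptors, partners and enzymes, such as the TrkB gene Ntrk2 and the mGluR5 gene Grm5. Of these, 16 were below 0 with a median of -0.057. In the second group 2 genes, Sh3gl3 and Ptger3, were below wild type in all 4 libraries labelled overexpression, and 0 were above. Sh3gl3, an endophilin that binds Arc, held 28.1, 32.4, 28.5 and 27.1 CPM against 32.6 to 33.9 CPM (log2 -0.19, SE 0.0701, edgeR adjusted p = 0.364). Of 16 upstream regulators 8 were above 0, with the CREB coactivator gene Crtc1 at log2 0.14 (SE 0.0549, edgeR adjusted p = 0.398) and Srf at 0.15 (SE 0.0634, edgeR adjusted p = 0.419).

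A wider list of other activity-induced effectors gave no called gene. Of 54 tested, 28 were below 0, and the median was -0.012. At an unadjusted p under 0.05, 7 were lower and 2 higher, where 5.43% of all genes were lower and 925 of 17636 higher. The 2 higher genes were Csrnp1 (log2 0.42, SE 0.157, edgeR adjusted p = 0.381) and Ier3 (log2 0.33, SE 0.149, edgeR adjusted p = 0.431). In all 4 libraries labelled overexpression, 4 were below wild type and 1 above, against 3.02% and 2.82% of all genes. The 1 above was Maff, at a mean of 1.16 CPM. The 4 below were Adcyap1, which encodes the neuropeptide PACAP, Igf1, Ccn1 and Rasgrp1. Rasgrp1, a calcium-responsive activator of Ras, held 641, 636, 656 and 627 CPM against 697, 787, 666 and 712 CPM (log2 -0.16, SE 0.0497, edgeR adjusted p = 0.315). Adcyap1 stood at log2 -0.25 (SE 0.0861, edgeR adjusted p = 0.332) and Pcsk1, a protease that matures neuropeptides, at -0.21 (SE 0.066, edgeR adjusted p = 0.315). The G protein regulator gene Rgs2 stood at log2 -0.29 (SE 0.0862, edgeR adjusted p = 0.315). The later transcription factors leaned the other way, with 8 of 11 above 0 and a median of 0.17, but 0 at an unadjusted p under 0.05. Of all genes tested, 8905 of 17636 were above 0, and of the 25% with the highest GC, 79.1% were. Fold changes of genes other than the members are given without GC correction. The clock gene Per1 stood at 89.6, 88.1, 145 and 137 CPM against 79.6 to 107 CPM. It was inside the wild-type range in replicates 1 and 2 and above it, like Arc, in replicates 3 and 4. Sik1 and Tiparp had the positions of Arc, with replicates 1 and 2 below and replicates 3 and 4 above all wild-type libraries. Sik1 stood at 11.8, 10.04, 16.99 and 18.3 CPM against 13.3 to 16.6 CPM. Tiparp stood at 8.79, 8.67, 13.2 and 12.8 CPM against 9.91 to 12.1 CPM. Klf10, Midn, Kcna1, Gpr3 and Crh had the positions of Dusp1. Outside the MAP kinase phosphatases, the others of the 54 had neither pattern. The 5 MAP kinase phosphatase relatives of Dusp1 had a median of -0.019, with Dusp5 at log2 0.38 (SE 0.197, edgeR adjusted p = 0.518). Dusp5 had the positions of Dusp1, at 7.77, 6.71, 13.7 and 12.4 CPM against 7.37 to 8.44 CPM. Dusp6 had those of Arc, at 50.5, 40.0, 64.1 and 70.3 CPM against 53.1 to 61.1 CPM. Dusp4 was above wild type in replicates 3 and 4, while Dusp14 and Dusp2 had none of these patterns.

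Several members are also expressed by cells other than neurons. Summed markers of endothelial cells (7 of 7 matched) ran from 288 to 317 CPM in the libraries labelled overexpression and from 282 to 352 CPM in wild type, those of mural cells (5) from 197 to 207 against 178 to 225 CPM, those of astrocytes (5) from 1109.6 to 1306 against 1113 to 1234 CPM and those of oligodendrocytes (5) from 3611 to 5232 against 4318 to 5212 CPM, all overlapping. Microglia markers (6) summed to 431, 443, 388 and 361 CPM in overexpression replicates 1 to 4 against 347 to 396 CPM in wild type, above all wild-type libraries in replicates 1 and 2. Of these 6, 3 (Csf1r, Tmem119 and Cx3cr1) were higher at an unadjusted p under 0.05 and none lower, none was called, and the median log2 fold change was 0.16, opposite in sign to that of the effectors. Striatal neuron markers (6) differed within groups, at 129.5, 232, 252 and 292 CPM in overexpression replicates 1 to 4 against 130.2 to 254 CPM in wild type. Among these 4 replicates they were highest in replicate 4, as Arc and Dusp1 were. They were lowest in replicate 1, whereas Arc and Dusp1 were lowest in replicate 2. Overexpression replicate 1 also held the lowest oligodendrocyte marker sum, 3611 CPM, below all wild-type libraries. Choroid plexus markers (4) reached 1102 CPM in wild-type replicate 4, the library with the lowest wild-type Ptgs2, against 7.62 to 106 CPM in the other 7. Glucocorticoid-responsive genes (8), of interest because Dusp1 and Per1 respond to the hormone, ran from 224 to 260 against 214 to 244 CPM. Of these 8, 7 were above 0 with a median log2 fold change of 0.16. At an unadjusted p under 0.05, 2 were higher and 1 was lower, and none was called. The part of these cells and signals in the results was not tested, and fewer cells of a type cannot be told apart in bulk tissue from less RNA per cell.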

How the data were processed

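Poly(A) RNA was sequenced as strand-specific libraries, per the labels' protocols. The authors deposited raw read counts per Ensembl gene, 1 column per library; per the submitters' processing notes, the tools were featureCounts 2.0.3, STAR 2.7.10 and Trimmomatic 0.39, with no roles, and the builds GRCm38 and mm10. Strand setting, annotation release and the treatment of multi-mapping reads were not stated, so reads of overlapping genes may be divided in an unknown way. Groups and replicate numbers came from the titles. Symbols, positions, exon lengths and the GC content of the longest transcript came from GENCODE M21 (GRCm38), with a symbol for 54409 identifiers and none for 37. No library was a copy of another (chi-square per degree of freedom at least 9.07).

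Counts were filtered with filterByExpr, scaled by TMM and tested by robust quasi-likelihood in edgeR 4.0.16 under R 4.3.3, Benjamini-Hochberg adjusted over all genes. SE is the fold change divided by the root of F. TPM used the union of exons. Levels relative to the fast factors used log2 CPM with a prior count of 2. The test was tested on simulated data. Alternatives were other scalings and filters, DESeq2 1.42.0, limma-voom 3.58.1, no robust estimation, the replicate block, a GC offset (spline, 5 degrees of freedom) and leaving out each library. All 10 members are named, and of each list up to 4 genes with the lowest p, some of which are not given. Further genes are named where their values bear on a count or a member. These are Fos, Egr1, Egr2, Nr4a1, Junb, Nptx1, Per1, Igf1, Ccn1, Maff, Sik1, Tiparp, Klf10, Midn, Kcna1, Gpr3, Crh, Dusp6, Ptger3 and 3 microglia markers. The members and lists were chosen with earlier results of these data known.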

Additional observations from a re-analysis of the deposited data

Results flagged for a closer look

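Of 22 groups of 4 libraries tested for a library far from the others, 2 held one; chance alone marks about 1 in 20. Ptgs2 in wild-type replicate 4 stood at 11.1 CPM, apart from the other wild-type libraries at 14.2 to 14.5 CPM, and the same library held the most choroid plexus marker counts. Gadd45b in overexpression replicate 2 stood at 5.47 CPM, apart from the other libraries labelled overexpression at 8.07 to 8.42 CPM.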

How the results depend on the processing

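Calls depended on the method. Over all genes 6 were called, against 83 with no low-count filter, 44 in DESeq2, 2 in limma-voom, 2 without robust estimation and 1 with the replicate block, and 1 to 8 when 1 library was left out. Members called numbered 1, against 3 with no low-count filter and 3 in DESeq2 (Btg2, Ptgs2 and Klf6 in both), 0 in limma-voom, 0 without robust estimation, 0 with the replicate block (Btg2 and Klf6 each at an edgeR adjusted p of 0.0534) and 0 to 1 when 1 library was left out. The cause was not tested. Same-numbered libraries did not deviate together (correlations -0.051 to 0.027), so the numbers were not taken to pair the libraries. Members lower at an unadjusted p under 0.05 numbered 5 to 7, and members below wild type in every library labelled overexpression 3 to 5, in alternatives added after seeing the data. The share of all genes in the latter position ran from 1.98% to 6.88% over the same settings. It was 4.08% or more whenever 1 library was left out. When 1 library was left out, log2 fold changes spanned 0 for Arc (-0.31 to 0.17), Dusp1 (-0.043 to 0.37) and Ier2 (-0.093 to 0.089). Levels relative to the fast factors spanned 0 for Bdnf (-0.12 to 0.13), Ptgs2 (-0.33 to 0.040), Gadd45b (-0.089 to 0.17) and Klf6 (-0.16 to 0.19), and Ptgs2 stood at 0.016 after GC correction. In counts simulated for this comparison (17375 genes tested) the test found 76% of 50 genes changed 1.5-fold. That step is close to that of Btg2 and larger than those of the other 9 members. At the smallest step simulated the test found 42% of 50 genes, and the whole simulation gave 14 false calls. The simulation held changed genes at several steps together, which eases the adjusted threshold. In the data 6 genes were called, so these shares may overstate what the test can find here.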
